A study of Homo sapiens with 4 samples.

Results

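The genes described here are the noncoding host genes of small nucleolar RNAs (snoRNAs), the SNHG genes, together with GAS5, ZFAS1, EPB41L4A-AS1 and DANCR, and 3 protein-coding hosts, RACK1, TAF1D and CCAR1. They were taken by name from a count table of 60662 genes, of which 26477 had a count, and they numbered 31, made up of 28 long noncoding RNA genes and the 3 protein-coding ones. Full-length cDNA made from 50 ng of total RNA was amplified by PCR and read on a MinION nanopore sequencer in 4 libraries of HAP1 cells, a human line with a nearly haploid genome that stems from KBM-7, a line of chronic myeloid leukaemia (CML) origin. There were 2 wild-type (WT) libraries of the control line, titled WT #4 and called A and B here. The 2 knockout (KO) libraries were 1 each of MATR3 KO clones 1 and 5. The control line was bought alongside the KO clones from Horizon Discovery, and no treatment is named for any library. Matrin 3, the product of MATR3, is an RNA- and DNA-binding protein of the nuclear matrix with a role in splicing. No separate cultures are named, which leaves the p-values as a measure of the spread among these 4 libraries alone, and each KO clone is 1 edited line with 1 library. The column names of the WT and KO libraries carry different date-like tags, so that date and genotype cannot be told apart, and those of the WT libraries also carry the tags FACS and test, which the sources used here do not explain.

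A snoRNA host gene is spliced to give an exonic RNA and introns, and the snoRNAs are trimmed out of the debranched introns. C/D box snoRNAs guide 2′-O-methylation and H/ACA box snoRNAs guide pseudouridylation, mostly of ribosomal RNA, while the related scaRNAs work on spliceosomal RNAs in Cajal bodies. Many host transcripts begin with a terminal oligopyrimidine (TOP) tract like that of ribosomal protein mRNAs, are engaged by ribosomes and are removed by nonsense-mediated decay, so that the exonic RNA is short-lived while the snoRNA is stable. The tables report the spliced or unspliced host RNA as reads per gene. They do not give the level of the mature snoRNAs, which are short and lack a poly(A) tail.

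The sequences at both ends of this arrangement are shown first, the starts of host genes and the snoRNAs they carry. Each start window below is 60 bases of the RefSeq promoter entry on GRCh38.p14, 30 bases on either side of the annotated start, on the strand of the gene, and capitals mark a pyrimidine run. These genes are shown because the first is the host gene at the MATR3 locus, the next 3 are abundant or well-known hosts with a run, and SNHG1 and SNHG3 had the lowest p-values in the comparison and have none.
SNHG4 (chr5:139274071-139274130, plus strand): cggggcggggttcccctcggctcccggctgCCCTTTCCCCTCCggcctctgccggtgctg
SNHG8 (chr4:118278732-118278791, plus strand): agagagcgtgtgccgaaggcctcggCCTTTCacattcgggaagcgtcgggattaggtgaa
SNHG19 (chr16:2155329-2155388, minus strand): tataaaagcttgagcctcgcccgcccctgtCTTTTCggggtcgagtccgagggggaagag
ZFAS1 (chr20:49278612-49278671, plus strand): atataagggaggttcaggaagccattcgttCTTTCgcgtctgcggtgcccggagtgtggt
SNHG1 (chr11:62855856-62855915, minus strand): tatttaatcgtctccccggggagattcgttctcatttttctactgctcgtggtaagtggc
SNHG3 (chr1:28505913-28505972, plus strand): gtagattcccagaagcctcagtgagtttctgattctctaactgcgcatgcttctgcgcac

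A run was defined as a C followed by at least 4 further C or T bases, on the strand of the gene alone, beginning within 10 bases of the annotated start. Of the 27 members with an entry, 16 had one, against 33.5% of the 35116 promoters in the table. A run of 8 bases or more was present in 6 members and in 9.17% of all promoters. The annotated start need not be the one used in HAP1 cells, and a match of letters is a description only. The entry of SNHG14, which had a run, is chr15:24823358-24823657, upstream of its GENCODE span, which begins at base 24978583. The window shown for SNHG3 ends at base 28505972, and the GENCODE span of SNHG3 begins at base 28505980. That window holds base 28505943, where the GENCODE span of the gene RCC1 begins on the same strand.

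The snoRNAs below are from the hg38 transcripts of GENCODE 44. SNORA74D lies in SNHG4, SNORA73B in SNHG3 and SNORD104 in SNHG25. Capitals mark the ACA box of H/ACA snoRNAs, where one was found in the last bases, and boxes C and D of the C/D snoRNA. They are shown for the locus, for the tested host with the highest log2 fold change and for the host with the highest level per length.
SNORA74D (chr5:139276180-139276320, plus strand): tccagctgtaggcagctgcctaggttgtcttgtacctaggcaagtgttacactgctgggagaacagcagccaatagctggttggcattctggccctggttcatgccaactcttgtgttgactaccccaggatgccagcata
SNORA73B (chr1:28508559-28508762, plus strand): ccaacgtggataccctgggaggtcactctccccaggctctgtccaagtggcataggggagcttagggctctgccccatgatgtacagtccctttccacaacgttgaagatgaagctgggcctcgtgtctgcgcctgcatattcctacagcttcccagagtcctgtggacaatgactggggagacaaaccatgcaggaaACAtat
SNORD104 (chr17:64146083-64146152, plus strand): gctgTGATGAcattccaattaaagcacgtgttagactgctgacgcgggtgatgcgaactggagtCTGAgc

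The totals were 3509906 counts for WT A, 5303199 for WT B, 3121759 for the library of KO clone 1 and 4024026 for that of KO clone 5. Neither MATR3 gene model passed the test for a difference. The shorter MATR3 model, ENSG00000015479.19, was counted 171 and 304 times in WT A and B and 187 and 204 times in KO clones 1 and 5, a log2 difference (the log2 fold change, KO minus WT) of 0.03 (SE 0.28, edgeR adjusted p = 0.974). A longer model, described below, overlaps its span on the same strand. The sources used here do not give how reads within both models were assigned, so neither count is the whole MATR3 level with certainty. They do not give the position of the edit either, and the RNA level does not check the KO label. Of the haematopoietic markers 12 of 18 had 0 counts in all libraries, PTPRC, CD34, GATA1 and SPI1 among them. All 18 summed to 21.4 to 25.4 CPM (counts divided by the scaled library size) in WT and 40.4 to 48.5 CPM in KO. GATA2 was the largest part, with means of 14.7 CPM in WT and 26.5 CPM in KO. The WT and KO means were 1.58 and 6.11 CPM for MYB, 2.64 and 7.16 CPM for RUNX1 and 3.84 and 4.11 CPM for TAL1. KIT was counted 1 and 4 times in the WT libraries and 0 times in the KO libraries. The 4 tested markers, GATA2, MYB, RUNX1 and TAL1, did not pass, the lowest edgeR adjusted p being 0.0979 for MYB. The summed level of 10 neuronal markers was 2.42 to 4.46 CPM in WT and 37.8 to 68.8 CPM in KO, with STMN2, DCX and ELAVL4 at 0 in all libraries. NEFL made up most of the KO sum, at 62.9 and 31.3 CPM in KO clones 1 and 5. In WT A and B it had 0.892 and 0.559 CPM. The 10 epithelial markers summed to 22.6 to 25.4 CPM in WT and 50.7 to 90.0 CPM in KO, with 3 at 0. KRT8 and KRT18 made up most of the epithelial sum, while EPCAM was counted 9 and 14 times in the WT and 4 and 5 times in the KO libraries. The 10 fibroblast and mesenchymal markers summed to 7.83 to 8.33 CPM in WT and 5.17 to 8.29 CPM in KO, with 5 at 0. The part of these marker differences in the results below was not tested, and in bulk RNA fewer cells with a transcript and less of it per cell cannot be told apart.

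None of the 31 host genes passed the test for a difference between KO and WT. The members took 0.778% and 0.742% of all counts in WT A and B and 0.665% and 0.723% in KO clones 1 and 5, and the 28 noncoding ones alone took 0.423%, 0.419%, 0.441% and 0.430%. The count was highest for RACK1 in each library. Of the 31 members 25 had enough counts to be tested, 4 had too few and SNHG22 and SNHG28 had 0 counts in all 4 libraries. With edgeR's quasi-likelihood test 0 of the 25 were called at an adjusted p under 0.05, where 2.19% of the 10505 tested genes were called, and the lowest adjusted p of a member was 0.258. Before adjustment 2 members had p under 0.05, both higher in KO, against 16.4% of all tested genes. With DESeq2 and with limma-voom the number called was 0 as well.

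The differences were small in size. All 25 had a log2 fold change between -1 and 1, and 22 lay within 0.5 of 0, while of all tested genes 9506 lay within 1 and 6936 within 0.5. The log2 fold changes ran from -0.59 to 0.71, with 13 above and 12 below 0 and a median of 0.07, beside 0.0021 over all genes tested. The 95% interval held 0 for 23 members. Its width ran from 0.90 to 1.88 on the log2 scale, so a fold difference that lies inside such an interval was not resolved. Both KO libraries lay above both WT libraries for 5 members, where 25.0% of all genes did so, and below them for 8 members, where 22.8% did. For the other 12 the groups overlapped.

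**Figure D1:**
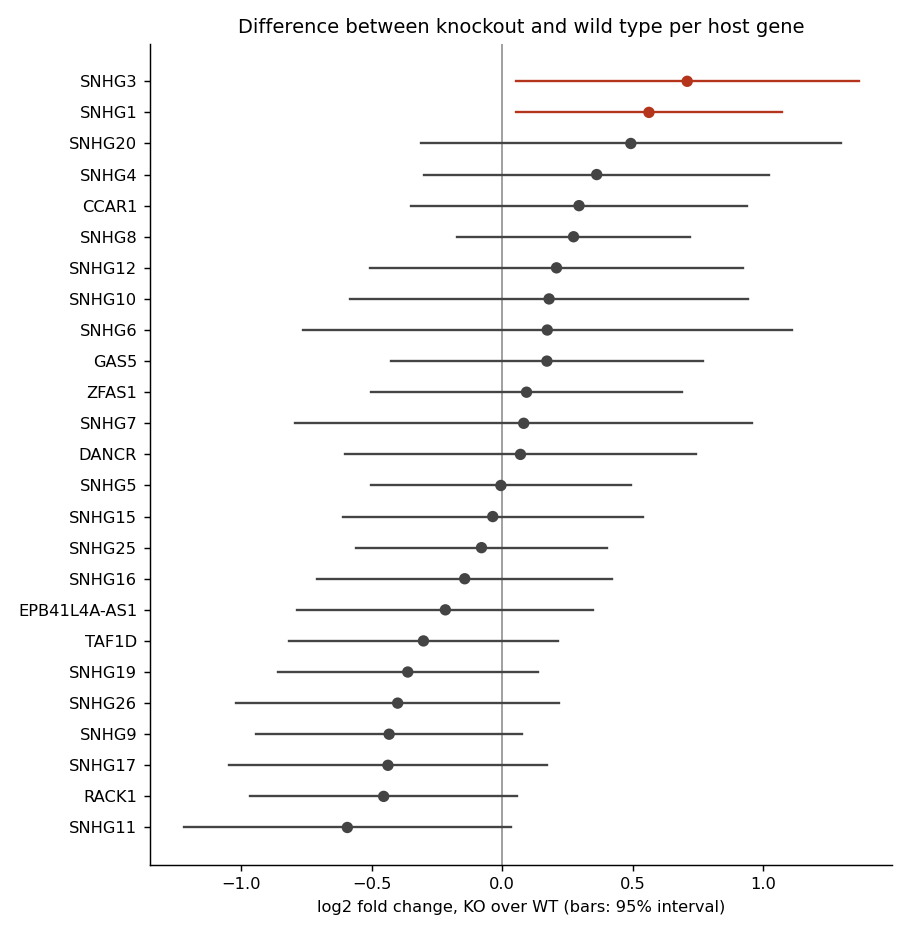
Log2 fold change of each tested host gene, KO over WT, with its 95% interval from edgeR's quasi-likelihood fit (2 WT and 2 KO libraries). SNHG3 and SNHG1, at the top, are the 2 members with an unadjusted p under 0.05, and the intervals of the other 23 cross 0.

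The noncoding hosts with the highest CPM carry 1 or a few snoRNAs each. SNHG8, host of the H/ACA snoRNA SNORA24, had 1018 and 952 CPM in WT A and B and 1171 and 1209.9 CPM in KO clones 1 and 5. The KO libraries lay above the WT libraries, with means of 985 ± 47.1 and 1191 ± 27.4 CPM (SD, n = 2 each) and a log2 difference of 0.27 (SE 0.21, edgeR adjusted p = 0.549). The gene PRSS12, on the other strand, covers 37.6% of the exonic bases of SNHG8 and had 61, 77, 35 and 51 counts in the 4 libraries. Without a stated strand setting, reads of such antisense partners cannot be told apart. SNHG25, host of SNORD104 and SNORA50C, had 962 and 773 CPM in WT and 752 and 890 CPM in KO, with overlapping groups and a log2 difference of -0.08 (SE 0.23, edgeR adjusted p = 0.900). SNHG5, host of SNORD50A and SNORD50B, was the most even of the 8 hosts with the highest CPM, with 362 and 355 CPM in WT and 335 and 380 CPM in KO and a log2 difference of -0.0052 (SE 0.23, edgeR adjusted p = 0.995).

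A pair of compact genes on chromosome 16 had lower values in both clones. SNHG9, host of SNORA78, had 470 and 381 CPM in WT A and B and 302 and 327 CPM in KO clones 1 and 5. Its means were 425 ± 63.3 and 315 ± 17.4 CPM (SD, n = 2 each), a log2 difference of -0.43 (SE 0.24, edgeR adjusted p = 0.389). SNHG19, host of SNORD60, had 457 and 491 CPM in WT and 334 and 403 CPM in KO, a log2 difference of -0.36 (SE 0.23, edgeR adjusted p = 0.469). The groups did not overlap for either gene, and neither passed the test.

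Levels of different genes were set beside each other per length. Per kb of annotated exons, SNHG25 was highest in WT with 2553 ± 393 CPM per kb (SD, n = 2) over 0.340 kb of exons. SNHG19 followed with 772 ± 38.6 CPM per kb, SNHG9 with 692 ± 103 CPM per kb, RACK1 with 525 ± 65.7 CPM per kb, SNHG8 with 149 ± 7.13 CPM per kb and SNHG1 with 55.1 ± 0.851 CPM per kb (SD, n = 2 each). SNHG9 lay within the summed SDs of both its neighbours in this order, SNHG19 and RACK1, while the other neighbours lay further apart than that. The 6 genes at the top were the same in KO. The exon length is the union over all annotated isoforms, which need not be those made in HAP1 cells, and a long read is counted once whatever its length, so the order depends on the division by length. In CPM, RACK1 and SNHG8 stood above SNHG25.

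**Figure D2:**
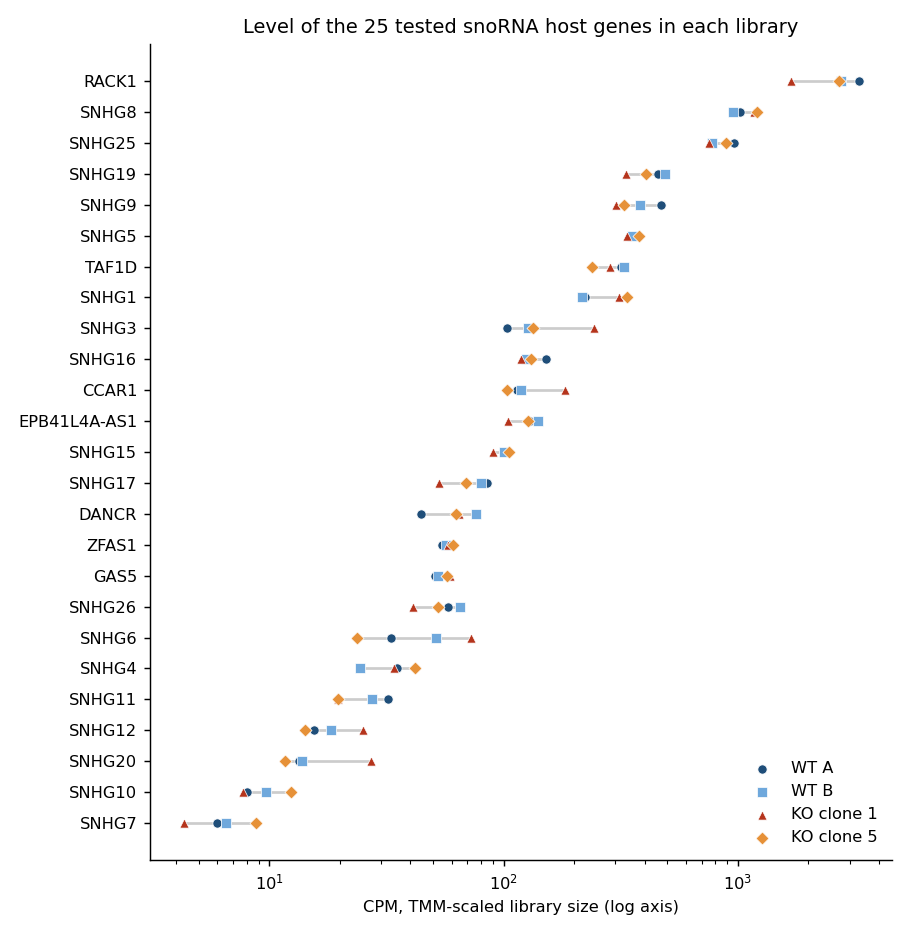
CPM of the 25 tested host genes in each of the 4 libraries, on TMM-scaled library sizes and a log axis; a point is 1 library and the grey line spans the 4. RACK1 is at the top with 1681 to 3279.6 CPM and SNHG7 at the bottom with 4.30 to 8.80 CPM, and the 4 points of GAS5 lie between 50.9 and 58.9 CPM.

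SNHG1 and SNHG3 were the 2 noncoding hosts with the lowest p-values. SNHG1, the host of 8 C/D box snoRNAs including SNORD22 and SNORD25, had 222 and 217 CPM in WT A and B and 312 and 335 CPM in KO clones 1 and 5. Both KO libraries lay above both WT libraries, and the WT libraries and the clones were each close to each other. The means were 219 ± 3.38 and 324 ± 16.3 CPM (SD, n = 2 each), a log2 difference of 0.56 (SE 0.24, 95% interval 0.051 to 1.07). The edgeR adjusted p was 0.258, and 0.0334 before adjustment. The log2 fold change stayed between 0.51 and 0.61 over 12 alternative settings. The adjusted p of SNHG1 over those settings ran from 0.163 to 0.860.

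SNHG3, host of the H/ACA snoRNAs SNORA73A and SNORA73B, had 103 and 127 CPM in WT A and B, 243 CPM in KO clone 1 and 134 CPM in KO clone 5. The groups did not overlap, but KO clone 5 lay just above WT B. The means were 115 ± 16.7 and 188 ± 76.9 CPM (SD, n = 2 each), a log2 difference of 0.71 (SE 0.31, edgeR adjusted p = 0.267). Without KO clone 5 the log2 fold change was 1.07 (edgeR adjusted p = 0.00708) and without KO clone 1 it was 0.22 (edgeR adjusted p = 0.812). When KO clone 5 was left out, 9.20% of the genes tested were called. SNHG3 shares 242 exonic bases with RCC1, the exchange factor of the GTPase Ran, on the same strand. The counts of RCC1 were 393 and 544 in the WT libraries and 311 and 395 in the KO libraries, a log2 difference of -0.14 (SE 0.27, edgeR adjusted p = 0.836).

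Apart from SNHG3 and SNHG8, described above, the tested hosts of H/ACA snoRNAs alone had lower or overlapping values. SNHG11, host of SNORA71E and SNORA60 on chromosome 20, had 32.1 and 27.4 CPM in WT A and B and 19.6 and 19.7 CPM in KO clones 1 and 5, a log2 difference of -0.59 (SE 0.29, edgeR adjusted p = 0.336). The groups did not overlap, and the clones were nearly equal. SNHG17, its neighbour on chromosome 20 and host of other members of the SNORA71 family, had 85.1 and 80.0 CPM in WT and 52.8 and 68.8 CPM in KO, a log2 difference of -0.44 (SE 0.28, edgeR adjusted p = 0.471). EPB41L4A-AS1, host of SNORA13, had 129 and 139 CPM in WT and 104 and 127 CPM in KO, a log2 difference of -0.22 (SE 0.26, edgeR adjusted p = 0.725). In both genes the 2 KO values lay below the WT values. DANCR, host of SNORA26, had 44.3 and 76.4 CPM in WT and 64.8 and 62.6 CPM in KO, so that both clones fell between the WT libraries, with a log2 difference of 0.07 (SE 0.31, edgeR adjusted p = 0.945).

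Among the hosts of C/D snoRNAs, GAS5 and ZFAS1 are the best known. GAS5, which carries 10 C/D snoRNAs and 1 H/ACA snoRNA in the annotation used here and is degraded by nonsense-mediated decay when it is translated, had 50.9 and 52.2 CPM in WT A and B and 58.9 and 57.2 CPM in KO clones 1 and 5. The KO libraries lay above the WT libraries by a log2 difference of 0.17 (SE 0.28, edgeR adjusted p = 0.806). ZFAS1, host of SNORD12, SNORD12B and SNORD12C, had 54.4 and 56.7 CPM in WT and 58.0 and 60.5 CPM in KO, a log2 difference of 0.09 (SE 0.28, edgeR adjusted p = 0.907). In both genes the 4 libraries were close to each other. SNHG26, host of SNORD93, had 57.7 and 65.3 CPM in WT and 40.8 and 52.3 CPM in KO, a log2 difference of -0.40 (SE 0.29, edgeR adjusted p = 0.523). SNHG20, which carries the scaRNA SCARNA16, had 13.4 and 13.8 CPM in WT, 27.0 CPM in KO clone 1 and 11.6 CPM in KO clone 5, so that the clones lay on either side of WT, with a log2 difference of 0.49 (SE 0.38, edgeR adjusted p = 0.547).

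The 3 protein-coding hosts did not pass the test either. RACK1, a scaffold protein of the small ribosomal subunit that carries SNORD95 and SNORD96A, had 3279.6 and 2746 CPM in WT A and B, 1681 CPM in KO clone 1 and 2715 CPM in KO clone 5. The value of KO clone 5 was close to that of WT B, and KO clone 1 was the low library. The log2 difference was -0.45 (SE 0.24, edgeR adjusted p = 0.370). It was -0.85 (edgeR adjusted p = 0.00998) without KO clone 5 and -0.15 (edgeR adjusted p = 0.842) without KO clone 1. RACK1 has processed copies elsewhere in the genome, so that its count is uncertain by the reads shared with them. TAF1D, a subunit of the RNA polymerase I factor SL1 and host of 8 snoRNAs, had 316 and 327 CPM in WT and 283 and 238 CPM in KO, a log2 difference of -0.30 (SE 0.24, edgeR adjusted p = 0.562). CCAR1, a coactivator in cell cycle and apoptosis control and host of SNORD98, had 114 and 119 CPM in WT, 183 CPM in KO clone 1 and 103 CPM in KO clone 5, a log2 difference of 0.29 (SE 0.30, edgeR adjusted p = 0.670). The KO values of TAF1D lay below WT, and those of CCAR1 lay on either side of it.

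No group of members by the kind of named snoRNA they carry held a called gene. The 10 tested hosts of H/ACA snoRNAs alone had a median log2 fold change of 0.02, the 9 hosts of C/D snoRNAs alone -0.0052, the 4 hosts of both 0.05 and the 2 hosts of a scaRNA alone 0.34. The 22 noncoding members had a median of 0.08 and the 3 protein-coding ones -0.30. By start sequence, the 14 tested members with a pyrimidine run had a median of -0.07 with 8 of them below 0, and the 7 with an entry but no run had 0.29 with 6 above 0. These splits were not tested, and SNHG1, SNHG3 and GAS5 all belong to the group without a run. The promoter entry of GAS5, chr1:173868996-173869295, lies wholly upstream of its GENCODE span, which ends at base 173868882. The start window of SNHG3 likewise lies upstream of its GENCODE span, as given above. The split is one of letters near the annotated starts and does not separate hosts with a TOP tract from hosts without one.

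Some members differed more between the KO clones than between KO and WT. Of the 25 tested members 8 differed at least 1.5-fold between clones, beside 32.1% of all tested genes, and 2 differed that much between the WT libraries, beside 21.7% of all tested genes. In KO clone 1 SNHG6 was 3.08-fold, SNHG20 2.32-fold, SNHG3 1.81-fold, and CCAR1 and SNHG12 each 1.77-fold the level in KO clone 5. SNHG7 was at 0.489, SNHG10 at 0.618 and RACK1 at 0.619 of the level in KO clone 5. For 9 members the clones lay on opposite sides of the WT mean. SNHG6, host of SNORD87, was the widest, with 33.0 and 51.3 CPM in WT A and B, 72.5 CPM in KO clone 1 and 23.5 CPM in KO clone 5. SNHG6 shares 58.9% of its exonic bases with MCMDC2 on the other strand, which had 8, 12, 18 and 21 counts. The WT libraries differed most in DANCR, which was 1.72-fold higher in WT B, and in SNHG6, 1.55-fold higher. With 1 library for each clone, clone differences have no replicate check.

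**Figure D3:**
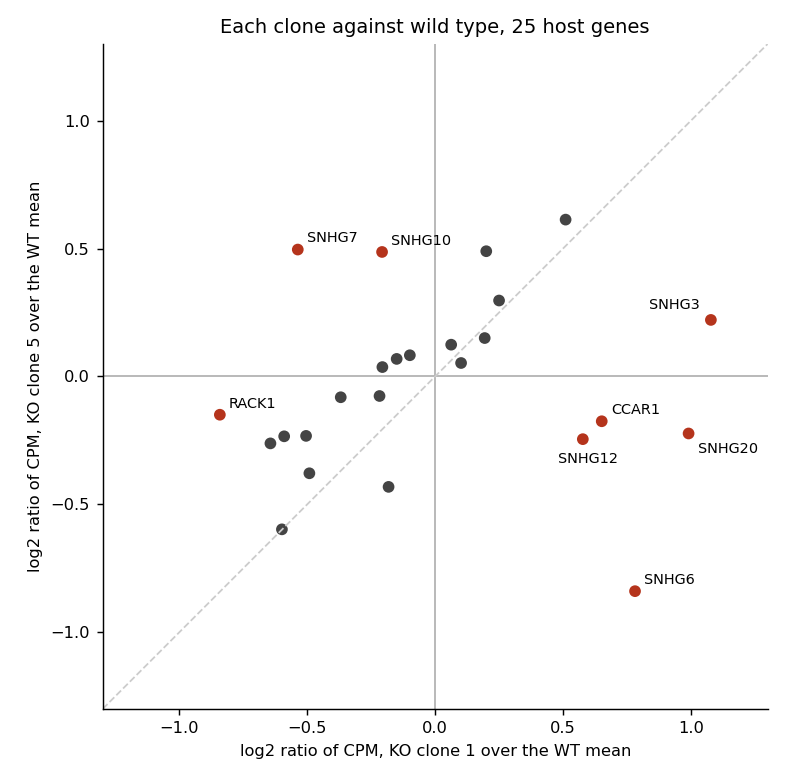
Log2 ratio of CPM over the WT mean, KO clone 1 on the horizontal and KO clone 5 on the vertical axis, for the 25 tested host genes (1 library for each clone). The 8 members that differ at least 1.5-fold between clones are named and red; the dashed line marks equal ratios, and SNHG6, CCAR1, SNHG12 and SNHG20 lie below the axis for clone 5 but to the right for clone 1.

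SNHG4 lies at the locus that was targeted. It spans chr5:139274102-139284899 on hg38 and carries the H/ACA snoRNAs SNORA74D and SNORA74A, the latter with 0 counts in all libraries. One RefSeq promoter entry of 300 bases, chr5:139273851-139274150 on the plus strand, serves both SNHG4 and MATR3 and is 63.3% G and C. It is 1 of 2 entries for MATR3, and the window printed for SNHG4 above is part of it. SNHG4 had 35.1 and 24.2 CPM in WT A and B and 34.1 and 41.7 CPM in KO clones 1 and 5, with overlapping groups, means of 29.7 ± 7.68 and 37.9 ± 5.36 CPM (SD, n = 2 each) and a log2 difference of 0.36 (SE 0.31, edgeR adjusted p = 0.593). The longer MATR3 model, ENSG00000280987, covers chr5:139273752-139331671 and shares 626 exonic bases with SNHG4, which is 14.0% of the exons of SNHG4. It had 41, 43, 27 and 37 counts in the 4 libraries, a log2 difference of -0.15 (SE 0.35, edgeR adjusted p = 0.875). The shorter model, chr5:139293674-139331677, begins 8775 bases beyond the end of SNHG4 and shares no exonic base with it. The log2 difference of SNHG4 was 0.65 without WT A and 0.086 without WT B. SNHG4 and the shorter model were called in 0 of 12 alternatives. The longer model was called in 0 of the 10 that gave it an adjusted p.

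Reads assigned to the snoRNA genes themselves were few. GENCODE 44 and RefSeq together place 155 named snoRNA and scaRNA genes inside 30 of the 31 members. Genes without a symbol, such as the 1 that GENCODE 44 places in SNHG28, were left out. Of the 155, 84 lie in SNHG14, the long host of the imprinted SNORD115 and SNORD116 clusters. Of the 133 that could be matched to a row of the count table, 11 had a count, and together they had 59 counts over the 4 libraries. SNORA74D in SNHG4, whose sequence is given above, was the only one of the matched with 10 counts or more, with 13 and 11 in WT A and B against 5 and 10 in KO clones 1 and 5. It was not tested, and its groups overlapped in CPM. SNORD104 was counted 1 and 3 times in the WT libraries and 0 times in the clones, and SNORA73B had 1, 1, 0 and 1. A row named SNORD75, which RefSeq gives to a snoRNA inside GAS5 but GENCODE 44 does not list, could not be placed and is not in these totals. SNORD75 had 5 and 18 counts in the WT libraries and 9 and 10 in the KO libraries, with overlapping groups and a log2 difference of 0.06 (SE 0.54, edgeR adjusted p = 0.975). Of the matched genes 77 overlap an annotated exon of their host, of which 4 had a count, and 56 lie in introns alone, of which 7 had a count. Many genes of both groups lie in SNHG14, which had 4 counts over the 4 libraries. None of the matched genes in SNHG14 had a count, so these shares depend on that host.

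The 6 members below the count filter had at most 13 counts in a library. SNHG14 had 1 count in each WT library and 2 and 0 in KO clones 1 and 5, and SNHG27 had 1 count in KO clone 1 alone. SNHG21 was counted 3 and 5 times in WT and 0 and 1 times in KO, a ratio of WT over KO of 6.53 after allowing for library size (95% interval 0.876 to 290, counting error only). SNHG18, host of SNORD123 and chosen for mention after its values were seen, was counted 13 and 9 times in WT and 0 and 2 times in KO, a ratio of 8.98 (95% interval 2.21 to 78.8, counting error only). An edgeR fit without the count filter gave SNHG18 an adjusted p of 0.0537 (0.00119 before adjustment), so it did not pass. SNHG22 and SNHG28, at 0, are limited by 3 counts per group, that is 0.344 CPM in WT and 0.421 CPM in KO.

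The proteins that build snoRNPs, the particles snoRNAs act in, were looked at as lists of related genes. Of 11 tested genes for C/D snoRNP proteins and their assembly 0 passed in either direction, where 2.19% of all tested genes passed. The median log2 fold change was -0.18. NOP56, a core protein of the C/D particle, had the lowest p, with 704 ± 102 CPM in WT and 1099.8 ± 4.97 CPM in KO (SD, n = 2 each) and a log2 difference of 0.64 (SE 0.22, edgeR adjusted p = 0.155). PIH1D1 and RUVBL2, both of the R2TP assembly complex, had -0.64 (SE 0.30) and -0.60 (SE 0.29).

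Of 10 tested genes for H/ACA snoRNP proteins and their assembly 1 rose and 0 fell, where 2.19% of all tested genes passed in either direction. The median was -0.22 on the log2 scale. The gene that rose was DKC1, which encodes dyskerin, the pseudouridine synthase of the particle, and is itself an intronic snoRNA host. It had 381 and 452 CPM in WT A and B, 1146 CPM in KO clone 1 and 656 CPM in KO clone 5, a log2 difference of 1.11 (SE 0.27, edgeR adjusted p = 0.0496). Both clones lay above WT, clone 1 further. DKC1 stood at the threshold and was called in 5 of 12 alternatives. Its log2 fold change was 1.00 without WT A, 1.21 without WT B, 0.66 without KO clone 1 and 1.45 without KO clone 5. SHQ1, an assembly chaperone of dyskerin, had -0.80 (SE 0.38) and NOLC1, a nucleolar and Cajal body phosphoprotein, -0.51 (SE 0.27), and neither passed.

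The list of protein-coding snoRNA hosts held 39 tested genes, of which 2 rose, RPS12 and DKC1, and 0 fell. Of all tested genes 2.19% passed in either direction, and DKC1 is the gene already counted in the H/ACA list. The median log2 fold change was -0.19. RPS12, a protein of the small ribosomal subunit, had 3623 and 2876 CPM in WT A and B and 5991 and 7502 CPM in KO clones 1 and 5. Both KO libraries were well above the WT libraries, with a log2 difference of 1.05 (SE 0.21, edgeR adjusted p = 0.0199). Its call was lost without WT A (1.24, edgeR adjusted p = 0.0855) and without WT B (0.87, edgeR adjusted p = 0.335). RPS12, like other ribosomal protein genes, has processed copies that could take or give reads. EIF5, a translation initiation factor, went the other way with 533 and 387 CPM in WT and 263 and 281 CPM in KO, a log2 difference of -0.76 (SE 0.25, edgeR adjusted p = 0.142).

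With all 4 libraries and the settings used here no gene passed in the remaining lists, where 2.19% of all tested genes did. These lists cover the steps that release snoRNAs and remove or translate host transcripts. Of 18 tested genes for intron lariat debranching and nuclear RNA decay the median log2 fold change was 0.08. EXOSC4, a core subunit of the RNA exosome, had 1.18 (SE 0.35, edgeR adjusted p = 0.104), XRN2, the nuclear 5′ exonuclease, 0.73 (SE 0.35) and EXOSC7, another exosome subunit, 0.62 (SE 0.31). EXOSC4 was called higher in 3 of 12 alternatives, with log2 differences from 0.75 to 1.80, and XRN2 in 1, with log2 differences from 0.22 to 1.11. Of 23 tested genes of nonsense-mediated decay the median was 0.0038. NBAS had -0.92 (SE 0.38, edgeR adjusted p = 0.246), SMG6, the endonuclease of the pathway, -0.78 (SE 0.39) and RBM8A, of the exon junction complex, 0.57 (SE 0.29). Of 16 tested regulators of TOP mRNAs the median was 0.04. MTOR, the kinase that controls translation of TOP mRNAs, had 40.2 and 64.3 CPM in WT, 220.4 CPM in KO clone 1 and 74.0 CPM in KO clone 5, a log2 difference of 1.48 (SE 0.43, edgeR adjusted p = 0.104). MTOR was called higher in 3 of 12 alternatives, with log2 differences from 0.49 to 2.06. TIA1 had 0.71 (SE 0.32) and TIAL1 0.54 (SE 0.31), both encoding proteins that bind TOP mRNAs.

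**Figure D4:**
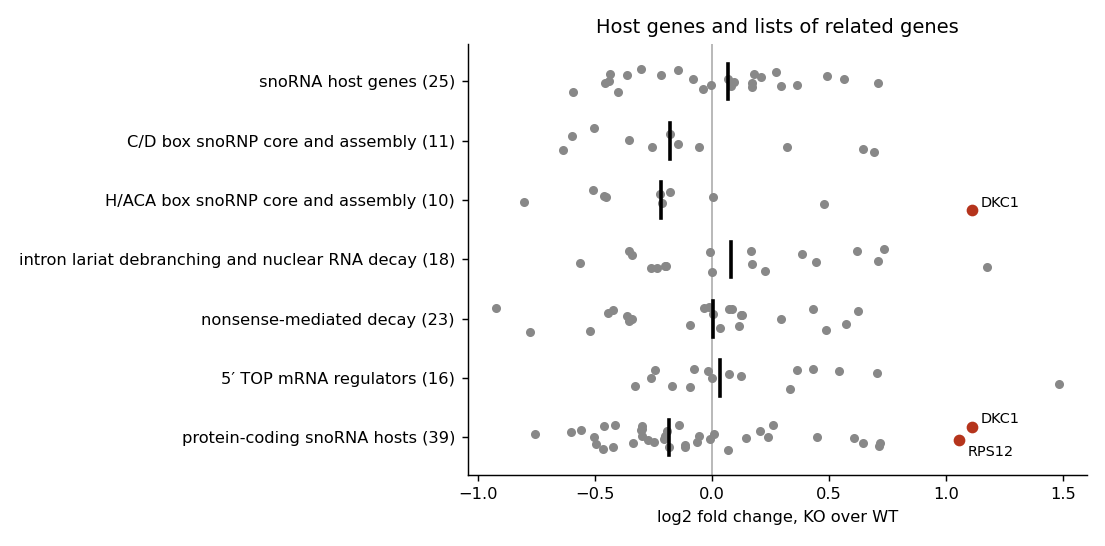
Log2 fold change, KO over WT, of each tested gene in the host gene set and in 6 lists of related genes, with the number tested in brackets; a point is 1 gene and the black bar is the median. Red points passed at an adjusted p under 0.05, which are DKC1 (in 2 lists) and RPS12, and no host gene of the upper row is red.

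The authors' deposited table, which holds 6479 genes, called no member either. It lists 24 members, and of these 0 had an adjusted p under 0.05 in the authors' deposited table, where 1.99% of its genes did. The lowest adjusted p of a member in the authors' deposited table was 0.330, for SNHG1, with a log2 difference of 0.56 (SE 0.25). All 24 had the same sign as in the edgeR fit. The authors' deposited table rests on libraries of the same study and is no independent measurement.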

How the data were processed

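The authors deposited raw counts of reads for each gene in 4 libraries, as whole numbers. The submitters' processing notes name minimap2, SAMtools, Subread, DESeq and DESeq2 1.22.2 with the hg38 build; the sources used here do not give settings, annotation or strand use. The authors also deposited a normalised signal (counts divided by a size factor), used here only to read the sign of their table, and a table of log2 fold changes with p-values, per the file headers. WT columns carry no replicate number and were called A and B.

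Genes were kept by filterByExpr (minimum count 10, minimum total 15), scaled by TMM and tested with edgeR 4.0.16 (quasi-likelihood, robust, two-sided; R 4.3.3), with Benjamini-Hochberg adjustment over 10505 genes and a threshold of 0.05. CPM use TMM-scaled library sizes. Totals of 3121759 to 5303199 counts limit precision for genes near 10 counts; intervals for counts below the filter are exact and 95%. PCR reads without molecular identifiers are not independent molecules, so these cover counting error only. All 31 members were placed by GENCODE 44, and RefSeq (GRCh38.p14) gave 27 promoter entries. Of the members, 21 share exonic bases with another gene, 18 with one on the other strand.

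Members and lists of related genes were chosen with earlier results of these data known. Named by rule are members past the threshold, the 10 with the lowest p, the 8 highest in CPM, SNHG4 and MATR3. The rule also names the 7 non-numbered members, SNHG1, the 3 lowest p in each list of related genes and snoRNA rows with 10 counts or more. RCC1, SNORD75, SNORD104, SNORA73B, SNORA74A, PRSS12, MCMDC2 and the markers named singly were named after their values were seen. So were SNHG6, SNHG7, SNHG10, SNHG12, SNHG15, SNHG16, SNHG18 and the other members below the filter. Alternatives were other scaling, filters, DESeq2 1.42.0, limma-voom (limma 3.58.1) and leaving out each library. One sequence is not reported here.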

Additional observations from a re-analysis of the deposited data

How the results depend on the processing

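Over 12 alternatives, 0 members were called in 11. The exception was the fit without KO clone 5, where SNHG3 (log2 fold change 1.07) and RACK1 (-0.85) were called. That fit has 1 KO library and also gave the most calls over all genes. Counts over all genes moved more. From 166 higher and 64 lower they went to 20 and 11 without scaling, 385 and 183 without a count filter and 71 and 12 among genes averaging 50 counts or more. The number lower was 24 with DESeq2 and 41 with limma-voom. Leaving out 1 library gave 91 to 674 higher and 42 to 361 lower, the high ends without KO clone 5. The median log2 fold change of the tested members, 0.07, was 0.022 among genes averaging 50 counts or more, -0.0059 with limma-voom and -0.16 to 0.086 with 1 library left out. The direction held in all alternatives for 14 members and reversed in some for 11. SNHG5 reversed to 0.016 without scaling and to 0.022 among genes averaging 50 counts or more, and SNHG6 to -0.012 with limma-voom. With 1 library left out, the values of the genes that reversed ran from -0.10 to 0.083 for SNHG5, -0.85 to 0.77 for SNHG6, -0.25 to 0.091 for SNHG25, -0.25 to 0.56 for SNHG12, -0.26 to 0.50 for DANCR, -0.16 to 0.069 for SNHG15, -0.55 to 0.49 for SNHG7, -0.18 to 0.65 for CCAR1, -0.22 to 0.47 for SNHG10, -0.31 to 0.0095 for SNHG16, -0.22 to 0.98 for SNHG20, -0.47 to 0.16 for MATR3 and -0.037 to 0.090 for its shorter model ENSG00000015479.19, which also reversed to -0.0079 with upper-quartile scaling. The cause was not tested. Where 1 library of an arm was left, it was assumed to vary like the other group. The alternatives for genes outside the members were added after their values were seen. No paired analysis was possible because WT replicates 1 and 2 and KO clones 1 and 5 share 1 number and the WT columns carry none. Depth limits the 6 members and the matched snoRNA genes that lay below the count filter.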
